A study of Mus musculus with 6 samples.

Results

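Il10, Maf and 7 further genes of a regulatory cytokine programme were examined in hepatic CD4 T cells. The 9 genes were taken by symbol from a count table of 28430 gene symbols, and 8 of the 9 had enough reads to be tested. They comprise the secreted products Il10, Ebi3, Il12a and Fgl2, the transcription factors Maf, Prdm1, Bhlhe40 and Nfil3, and the receptor chain Il10ra. Bulk RNA-Seq had been performed on CD4 T cells sorted from livers of dKO and WT mice, with 3 libraries per group. The dKO mice carried floxed alleles of Nr4a1 and Nr4a2, nuclear orphan receptors induced by antigen receptor signals, together with Cre recombinase driven by the Cd4 promoter. That promoter is also active in thymic precursors of CD8 T cells, so the deletion is not limited to CD4 T cells. The control mice are given as WT, with no further allele stated. All mice, dKO and WT, had eaten a high-fat diet (60 kcal% fat, 0.1% methionine) with no added choline for 8 weeks, which induces metabolic dysfunction-associated steatohepatitis (MASH), a fatty and inflamed state of the liver. The sources used here state neither age nor sex of these mice. The comparison asks how the transcriptome of hepatic CD4 T cells in MASH differs when T cells lack both receptors.

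IL-10 is an anti-inflammatory cytokine that Foxp3+ regulatory T cells (Tregs), type 1 regulatory (Tr1) cells and other effector CD4 T cells secrete. It signals through a receptor made of a ligand-binding chain, Il10ra, and a widely expressed partner chain, Il10rb, and then through the kinases Jak1 and Tyk2 to STAT3. Within T cells, the factor encoded by Maf acts on the Il10 locus, where it works together with Blimp-1, the product of Prdm1. Both Tregs and conventional CD4 T cells can transcribe the genes of this programme, so bulk values hold the sum over all cells sorted.

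The libraries held 5747744 to 8740564 counted reads in the libraries labelled dKO and 7124553 to 11078184 in those labelled WT. Reads of the targeted gene Nr4a2 did not fall but rose with the dKO label (478, 541 and 392 normalised CPM, against 160.1, 286 and 235 CPM under the WT label, edgeR adjusted p = 0.0308), and Nr4a1 did not pass the test (713, 1037 and 642 CPM against 329.5, 679 and 821 CPM, adjusted p = 0.65). These values sum reads over whole genes, the sources used here do not name the floxed exons, and all directions below are therefore between libraries as labelled. The call of Nr4a2 was lost without dKO 1, dKO 2 or WT 3. Nr4a3, the family member the design leaves intact, reached 514, 481 and 209 CPM against 153, 172 and 213 CPM and did not pass the test (adjusted p = 0.17). Markers of CD4 T cells did not pass the test in 6 of 6 genes, whereas Cd8a and Cd8b1 were both called higher (summed level 296 to 338 CPM against 199 to 237 CPM). Across all 15694 genes tested, 2.15% were called higher and 1.17% lower in the libraries labelled dKO, and the median log2 fold change was -0.01.

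Maf and Il10ra rose in the libraries labelled dKO, and these 2 of the 8 tested members passed the test (adjusted p under 0.05, Benjamini-Hochberg over all genes tested), where 2.15% of all tested genes were called higher. None of the 8 was called lower. The log2 fold change was above 0 for 8 of 8 members, as for 49.2% of all tested genes, and 5 of 8 (Il10ra, Maf, Fgl2, Prdm1 and Bhlhe40) had an unadjusted edgeR p under 0.05 with a higher level, as had 10.5% of all tested genes. In 6 of 8, every library labelled dKO lay above every library labelled WT, which held for 13.2% of all tested genes. Ebi3 and Nfil3 were the exceptions. Below, levels are normalised CPM (reads per 1000000 counted reads after scaling by trimmed mean of M values), means are given ± SD with n = 3 libraries per group, and log2 fold changes of libraries labelled dKO over those labelled WT are given ± SE with the adjusted p of edgeR's quasi-likelihood test.

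**Figure D1:**
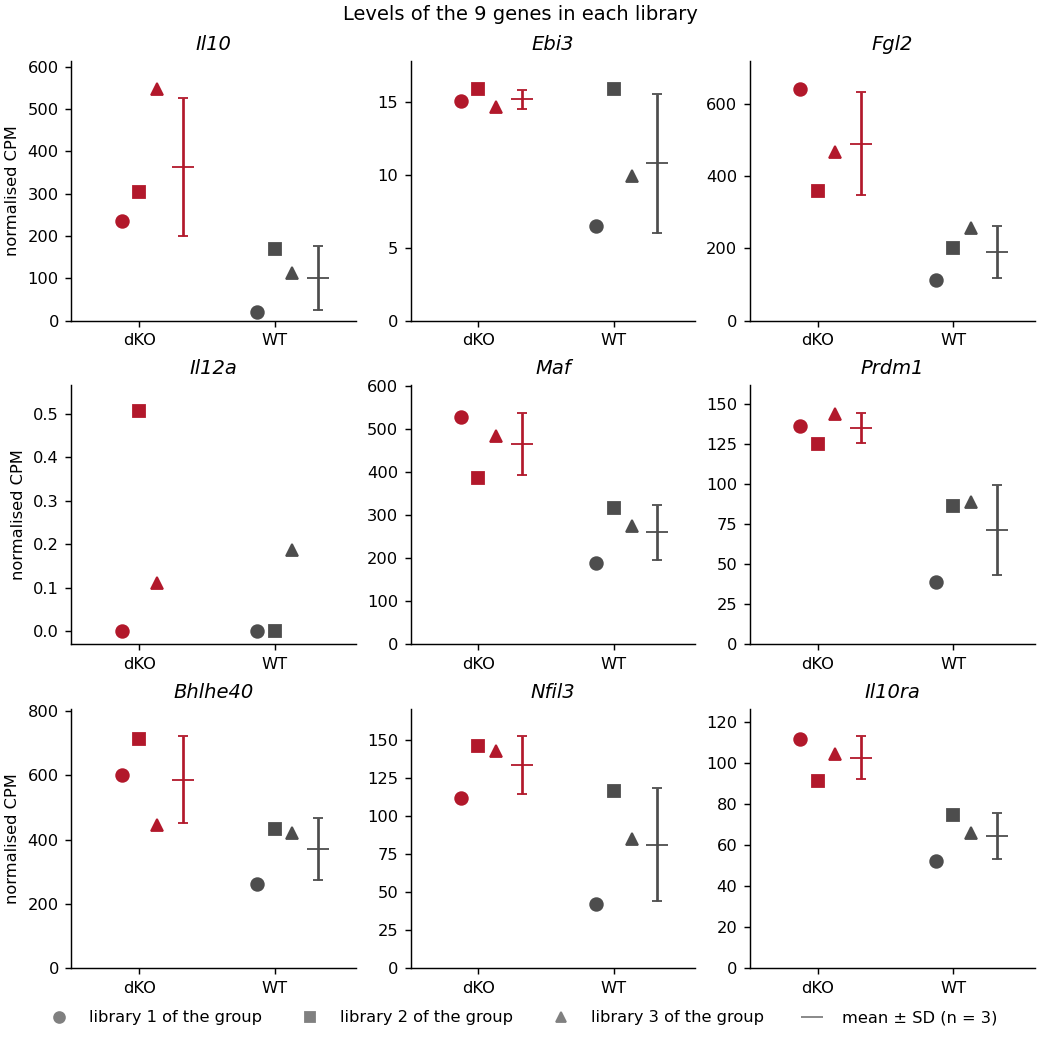
Normalised CPM of the 9 genes in each library (points), with dKO libraries in red on the left and WT libraries in grey on the right of each panel. Bars give mean ± SD of 3 libraries, left out for Il12a with its 6 reads in all. Il10 reached 236 to 547 CPM in dKO libraries and 20.8 to 168 CPM in WT libraries, whereas the Ebi3 and Nfil3 panels show overlapping groups.

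Among the secreted products, Il10 had the highest fold change and the widest spread. Il10 (chromosome 1, 131019845 to 131024974, plus strand, GRCm38) was covered by 1323, 1800 and 4951 reads in dKO 1 to dKO 3, against 151, 1358 and 1203 reads in WT 1 to WT 3. After scaling these were 236, 304 and 547 CPM in the libraries labelled dKO, against 20.8, 168 and 113 CPM in those labelled WT. The groups did not overlap, yet the highest WT library, WT 2, was closer to dKO 1 than dKO 1 was to dKO 3. The mean was 362 ± 164 CPM against 101 ± 74.5 CPM, a 3.60-fold difference (log2 fold change 1.85 ± 0.86, 95% interval -0.48 to 4.17) that did not pass the test (adjusted p = 0.352). Within the WT libraries Il10 varied 8.08-fold between lowest and highest, a spread that 0.116% of the 9520 tested genes of at least 10 CPM matched or exceeded. Within the dKO libraries the spread was 2.32-fold, matched or exceeded by 0.62% of those genes. The median gene varied 1.20-fold among dKO libraries and 1.22-fold among WT libraries. Il10 was not called under any of 14 alternative settings (adjusted p = 0.22 to 0.561), so its higher mean stayed within the error of these 6 libraries.

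Fgl2 encodes fibrinogen-like protein, which Tregs can secrete and which binds inhibitory Fc receptors on antigen-presenting cells. Fgl2 (chromosome 5, 21372642 to 21378374, plus strand) stood at 641, 359.8 and 468 CPM in dKO 1 to dKO 3, against 112, 200.3 and 255 CPM in WT 1 to WT 3. The groups did not overlap, and dKO 1 was the highest library. The means were 489.7 ± 142 CPM and 189 ± 72.2 CPM (log2 fold change 1.37 ± 0.36, 95% interval 0.47 to 2.27, unadjusted p = 0.0102), and the gene missed the threshold after adjustment (adjusted p = 0.118). Of the members of this programme, 5 of 9 matched a promoter window in RefSeq (GRCm38.p6, 250 bases before to 50 bases after the annotated start). The window of Fgl2 is shown because it was the only one of these with the letters TGCTGA, the core of a Maf half-site. It lies on the plus strand at chr5:21372423-21372722. Capitals mark TGCTGA, which begins 97 bases before the start, and TGAGTCA, an AP-1 site that begins 16 bases before it.
Fgl2: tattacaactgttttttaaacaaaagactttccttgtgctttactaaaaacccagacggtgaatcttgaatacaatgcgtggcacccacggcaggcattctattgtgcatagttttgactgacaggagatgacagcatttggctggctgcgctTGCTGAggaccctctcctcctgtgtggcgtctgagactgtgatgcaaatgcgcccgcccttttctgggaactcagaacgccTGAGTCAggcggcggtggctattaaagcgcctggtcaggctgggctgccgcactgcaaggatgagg
TGCTGA (read on both strands) was present in 19.5% of 32851 RefSeq promoter windows and TGAGTCA in 5.2%, and these matches are a description of the letters. The letters AAAGGTCA, the NBRE to which NR4A receptors bind as monomers, were found in 1.51% of all windows and in none of those of the 5 matched members. Of the other motifs searched on both strands, AGNGAAAG for Blimp-1 was found in a window of Il12a, as in 8.63% of all windows. CACGTG for the E-box (7.15% of all windows) and TTACGTAA or TTATGTAA for Nfil3 (1.06%) matched no window of the 5 matched members. No window was at hand for Il10, Maf, Bhlhe40 or Il10ra, so their promoters were not searched. The AP-1 and Maf letters of the Fgl2 window do not overlap each other.

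Ebi3 and Il12a encode the chains of IL-35, and Ebi3 also pairs with the product of Il27 to form IL-27. Ebi3 (chromosome 17, 55952640 to 55957022, plus strand) was low, with 84, 94 and 132 reads in dKO 1 to dKO 3 (14.6 to 15.9 CPM), against 47, 128 and 106 reads in WT 1 to WT 3 (6.49, 15.9 and 9.92 CPM). The groups overlapped, since WT 2 equalled the highest dKO library to 3 digits. The log2 fold change was 0.49 ± 0.27 (95% interval -0.10 to 1.08, adjusted p = 0.353). The antisense gene Gm16712 overlaps exons of Ebi3 and had 19 reads over all libraries, compared with 591 for Ebi3. Il12a (chromosome 3, 68690644 to 68698547, plus strand) had 0, 3 and 1 reads in dKO 1 to dKO 3, against 0, 0 and 2 reads in WT 1 to WT 3. With 6 reads in all it was not tested, and a count of 0 allows up to 3 reads in a library. A difference in Il12a was thus not detectable at this depth. Il27 had 1, 0 and 0 reads in the libraries labelled dKO and 0, 0 and 2 in those labelled WT, so that both partners of Ebi3 were close to or at 0 in these cells.

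Maf was the transcription factor of the programme that passed the test. Maf (chromosome 8, 115682942 to 115707794, minus strand) was present at 527, 386 and 484 CPM in dKO 1 to dKO 3, against 189.7, 316 and 274 CPM in WT 1 to WT 3. The antisense gene Gm15655 overlaps exons of Maf and is not among the counted symbols, so its reads are unknown. For Maf, each of the libraries labelled dKO exceeded all of those labelled WT, with the narrowest gap between dKO 2 and WT 2. The mean was 466 ± 72.2 CPM against 259.8 ± 64.3 CPM, 1.79-fold higher (log2 fold change 0.84 ± 0.19, 95% interval 0.43 to 1.26, adjusted p = 0.0401). This call stood near the threshold and held in 6 of 14 alternative settings. It was lost without dKO 1 (adjusted p = 0.172), dKO 2 (0.0527), dKO 3 (0.124) or WT 3 (0.0897), with limma-voom (0.0522), with limma-trend on log2(CPM + 1) (0.0506) or log2(CPM + 0.1) (0.0577), and with the replicate number as a block (0.104).

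Prdm1, which encodes the repressor Blimp-1, showed the narrowest range of the 4 factors among the dKO libraries. Prdm1 (chromosome 10, 44437177 to 44528501, minus strand) was present at 137, 125 and 144 CPM in the libraries labelled dKO, against 38.9, 86.2 and 88.8 CPM in those labelled WT. WT 1 lay well below the other WT libraries, and no library of one group entered the range of the other. The means were 135 ± 9.58 CPM and 71.3 ± 28.1 CPM (log2 fold change 0.92 ± 0.31, 95% interval 0.15 to 1.68, unadjusted p = 0.026), and the gene was not called (adjusted p = 0.184). Without WT 1 the log2 fold change was 0.62 ± 0.11 and Prdm1 was called higher (adjusted p = 0.00412).

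Bhlhe40 encodes a basic helix-loop-helix repressor that restrains Il10 in mouse helper T cells. Bhlhe40 (chromosome 6, 108660629 to 108666925, plus strand) reached 603, 713 and 444 CPM in dKO 1 to dKO 3, against 261, 433 and 419 CPM in WT 1 to WT 3. The groups just failed to overlap, with dKO 3 next to WT 2. The log2 fold change was 0.66 ± 0.23 (95% interval 0.13 to 1.18, unadjusted p = 0.0199, adjusted p = 0.162), so this gene too had a higher mean without passing the test. The antisense gene 0610040F04Rik shares exonic sequence with Bhlhe40 but had 36 reads in all. In dKO 3, the library with the highest Il10 level, Bhlhe40 was lower than in the other dKO libraries. In WT 1, by contrast, both genes were at their lowest, and dKO 2 exceeded dKO 1 for both. A relation between the levels of Bhlhe40 and Il10 was not tested.

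Nfil3 encodes a basic leucine zipper factor that acts on Il10 expression in helper T cells. Nfil3 (chromosome 13, 52967209 to 52981073, minus strand) had 111, 146 and 142 CPM in the libraries labelled dKO, against 42.2, 116 and 84.5 CPM in those labelled WT. WT 2 lay above dKO 1, so the groups overlapped. The means of 133 ± 18.9 CPM and 81.0 ± 37.2 CPM differed by 0.71 ± 0.38 on the log2 scale (95% interval -0.24 to 1.67, adjusted p = 0.387).

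Il10ra, the ligand-binding chain of the IL-10 receptor, gave the smallest p of the 9 genes. Il10ra (chromosome 9, 45253837 to 45269149, minus strand) was found at 112, 91.1 and 104 CPM in dKO 1 to dKO 3, against 52.3, 74.8 and 65.7 CPM in WT 1 to WT 3. The groups did not overlap. Il10ra rose 1.59-fold, with 102 ± 10.5 CPM against 64.3 ± 11.3 CPM (log2 fold change 0.67 ± 0.13, 95% interval 0.38 to 0.96, adjusted p = 0.019). The call was lost without dKO 1 (adjusted p = 0.109), dKO 3 (0.0694) or WT 3 (0.0587). The partner chain Il10rb had 39.7, 34.3 and 30.5 CPM in the libraries labelled dKO and 31.5, 38.8 and 37.1 CPM in those labelled WT, a difference of -0.05 ± 0.13 (95% interval -0.34 to 0.24). Reads of Il10ra per read of Il10rb were 2.82, 2.66 and 3.42 in the libraries labelled dKO, against 1.66, 1.93 and 1.77 in those labelled WT. This ratio was chosen after the values were seen. Exact permutation over 20 assignments gave p = 0.1, the smallest it can give. The other pairs computed (Il10 over Maf, Il10 over Prdm1, Maf over Mafg and Ebi3 over Il27ra) each gave a permutation p of 0.2. The separation of the groups in this Il10ra ratio follows from the higher Il10ra level and the nearly unchanged Il10rb level, so it is no separate result.

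**Figure D2:**
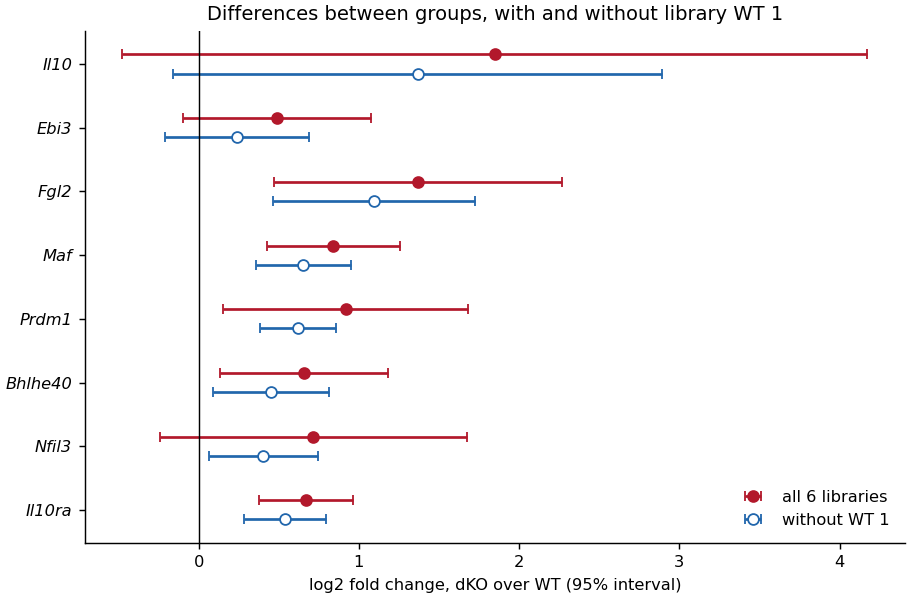
Log2 fold change of dKO over WT libraries with 95% interval for the 8 tested members, from all 6 libraries (filled red) and without WT 1 (open blue). Il10 moves to 1.37 without WT 1 with an interval that still includes 0, whereas the interval of Prdm1 narrows to 0.38 to 0.86.

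WT 1 held the lowest level of 8 of 8 tested members, while 20.3% of all tested genes were lowest in that library. The deviation from the gene's own mean over 6 libraries, on the log2(CPM + 0.5) scale, was -2.90 for Il10, -1.38 for Fgl2, -1.28 for Prdm1 and -0.62 for Il10ra in WT 1. In WT 2 and WT 3 the deviations of the 8 members lay between -0.54 and 0.35. The highest level was not tied to 1 library, with 3 members highest in dKO 1, 2 in dKO 2, 2 in dKO 3 and 1 in WT 2. Without WT 1, all 8 log2 fold changes were smaller (0.24 for Ebi3 to 1.37 for Il10) and remained above 0, and 3 members were called higher (Maf, adjusted p = 0.0131, Prdm1, 0.00412, and Il10ra, 0.0167). The summed level of the Treg markers was also lowest in WT 1, at 1281 CPM, compared with 1956 and 1710 CPM in WT 2 and WT 3, although Il2ra and Nrp1 were not lowest there. Nr4a1 was lowest in WT 1 as well (329.5 CPM).

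**Figure D3:**
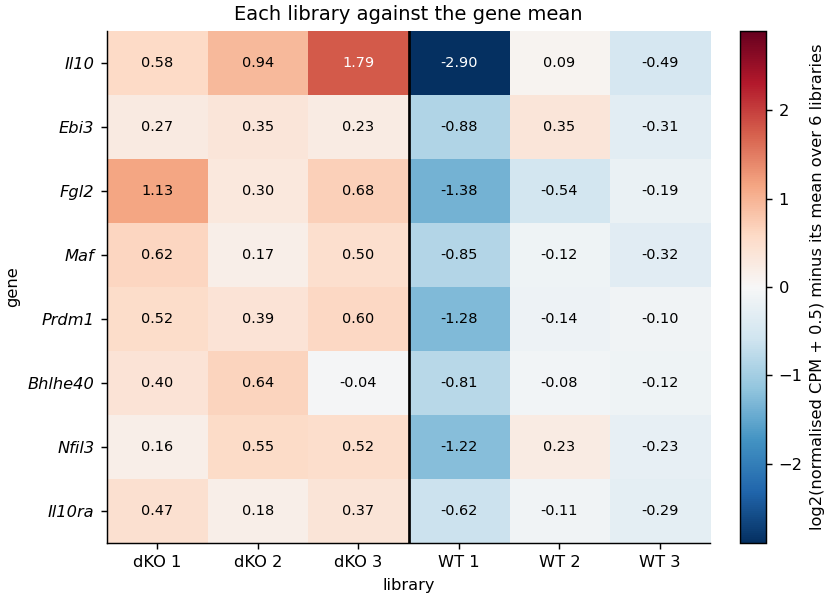
Level of the 8 tested members in each library minus the gene's mean over 6 libraries, on the log2(normalised CPM + 0.5) scale, with dKO libraries left of the line and WT libraries right of it. The WT 1 column is the most negative for every member, down to -2.90 for Il10 and with Bhlhe40 at -0.81. The dKO 3 column is at 1.79 for Il10 and at -0.04 for Bhlhe40.

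The members differed in how closely their profiles over the 6 libraries matched. Likeness was measured as the root mean square difference of mean-centred log2(CPM + 0.5), as a description. Maf and Il10ra had the closest profiles of any pair of members (0.13), followed by Ebi3 and Nfil3 (0.21), and Il10 stood at 0.87 (Prdm1) to 1.15 (Bhlhe40) from the others. Maf and Il10 differed by 1.04. Among 9519 other tested genes of at least 10 CPM, the profile most like that of Il10 was that of the metallothionein gene Mt1 (0.40), with 34.1, 34.6 and 47.4 CPM in dKO 1 to dKO 3 and 4.14, 23.8 and 14.3 CPM in WT 1 to WT 3. Tdpoz8 (0.61), Plxnd1 (0.62), Cd74 (0.63) and Neb (0.64) followed, and of these Plxnd1, a semaphorin receptor, was called higher (log2 fold change 1.72 ± 0.30, adjusted p = 0.0142, lost without dKO 1, dKO 3 or WT 3). Most like Maf were Tcn2, 4930417O13Rik, Myo1e, Serpina3g and Exoc6b (0.11 to 0.12), genes closer to Maf than any other member was. Exoc6b, a subunit gene of the exocyst, had 171, 154 and 164 CPM in the libraries labelled dKO and 63.0, 95.7 and 94.7 CPM in those labelled WT.

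Per kilobase of merged exons, Il10 was the most abundant member in the libraries labelled dKO, at 277 ± 125 CPM per kb, and all of these libraries exceeded those of every other member. Fgl2 (129 ± 37.5 CPM per kb) and Bhlhe40 (125 ± 28.7) came next and overlapped each other, as did Nfil3 (65.7 ± 9.33) and Maf (56.5 ± 8.76). Il10ra (29.3 ± 2.99), Prdm1 (24.2 ± 1.72) and Ebi3 (13.1 ± 0.561) followed without overlap. In the libraries labelled WT the levels were 78.9 ± 20.3 CPM per kb for Bhlhe40, 76.8 ± 56.9 for Il10, 49.9 ± 19.1 for Fgl2, 40.0 ± 18.4 for Nfil3 and 31.5 ± 7.80 for Maf, with each gene overlapping the next. Il10ra stood at 18.4 ± 3.23, Prdm1 at 12.8 ± 5.03 and Ebi3 at 9.32 ± 4.11 CPM per kb in WT libraries, all of them below Maf, and Prdm1 overlapped both of these neighbours. These orders of level are descriptions without a test.

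Most Treg markers were higher in the libraries labelled dKO. Of 8 markers, 6 were called higher (Foxp3, Ikzf2, Ikzf4, Il2ra, Ctla4 and Lrrc32), with a median log2 fold change of 1.06 over the 8 against -0.01 over all tested genes, and their summed level was 3544 to 4566 CPM in the libraries labelled dKO, against 1281 to 1956 CPM in those labelled WT. Tnfrsf18 (0.73 ± 0.22, adjusted p = 0.12) and Nrp1 (-0.07 ± 0.11) did not pass the test. Foxp3, the lineage factor of Tregs, stood at 224, 186 and 173 CPM in dKO 1 to dKO 3, against 66.0, 110.1 and 85.2 CPM in WT 1 to WT 3 (log2 fold change 1.16 ± 0.18, adjusted p = 0.00954). In bulk samples, fewer cells of a type and less RNA per cell cannot be told apart. Levels of the members were therefore also expressed per Foxp3 level of the same library, as a description. Il10 gave 1.05, 1.63 and 3.16 in the libraries labelled dKO, against 0.316, 1.53 and 1.32 in those labelled WT, and these ranges overlapped. Its mean was 1.95 ± 1.09 against 1.06 ± 0.649, 1.85-fold higher, where the level itself was 3.60-fold higher. Fgl2 averaged 2.50 against 2.17 per Foxp3 level, with overlapping groups. The remaining 6 tested members were lower relative to Foxp3 in the libraries labelled dKO, with ratios of means between 0.659 (Ebi3) and 0.874 (Prdm1). Foxp3 itself was 2.23-fold higher, so a gene that rose less, or not at all, falls on division by it. The share of all tested genes that fall in this way was not computed, so the fall is not particular to these members. Maf gave 2.35, 2.08 and 2.79 per Foxp3 level in dKO 1 to dKO 3, against 2.87, 2.87 and 3.22 in WT 1 to WT 3, so the order of the groups turned and all dKO libraries lay below all WT libraries. For Il10ra the values were 0.499, 0.490 and 0.602, against 0.793, 0.679 and 0.771, also without overlap. Whether the Treg share of the sorted cells accounts for the differences of the members was not tested.

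**Figure D4:**
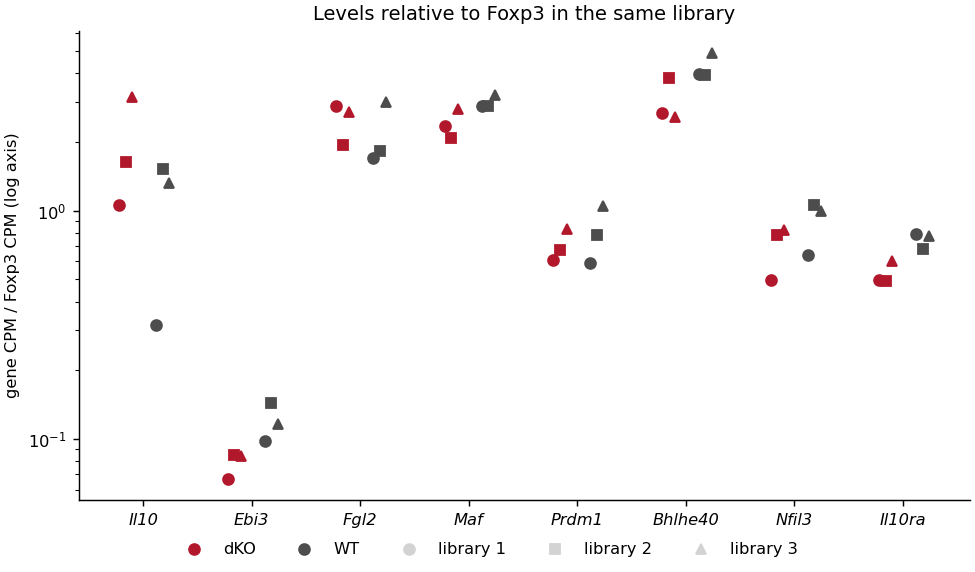
Level of each tested member divided by the Foxp3 level of the same library (log axis), with dKO libraries in red on the left and WT libraries in grey on the right of each gene. Il10 is the gene with the highest ratio of means (1.85), while Maf, Il10ra, Bhlhe40 and Ebi3 have all 3 dKO libraries below all 3 WT libraries. Foxp3 itself was higher in dKO libraries, so any gene that rose less falls in this ratio.

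Genes associated with Tr1 cells and effector Tregs, of which 12 were listed and tested, included 3 called higher (Ctla4, Icos and Havcr2) and 1 called lower (Cd226). The median log2 fold change was 1.26, and 12 of 12 had an unadjusted edgeR p under 0.05, 10 of them higher and 2 lower. Of all tested genes, 10.5% had such a p with a higher level, and the share over both directions was not computed. Havcr2, the gene of the checkpoint receptor TIM-3, was present at 58.4, 37.8 and 42.0 CPM in the libraries labelled dKO, against 6.76, 16.6 and 11.0 CPM in those labelled WT (1.99 ± 0.31, adjusted p = 0.0208, lost without dKO 1, dKO 3 or WT 3 and with the replicate block). The costimulatory receptor gene Icos reached 903 ± 169.7 CPM against 497 ± 77.7 CPM (0.86 ± 0.16, adjusted p = 0.0149, lost without dKO 1 or dKO 2). Lag3, an inhibitory receptor that is used with CD49b to mark Tr1 cells, had 139, 110.4 and 156 CPM against 26.6, 61.2 and 24.6 CPM and missed the threshold (1.85 ± 0.41, adjusted p = 0.0896). Itga2, which encodes CD49b, had 10.9, 9.62 and 11.6 CPM in the libraries labelled dKO, against 13.3, 12.9 and 24.7 CPM in those labelled WT (-0.67 ± 0.25, adjusted p = 0.172). Cd226, the activating counterpart of Tigit and also a Tr1 marker, fell to 131, 149.5 and 128 CPM in the libraries labelled dKO, against 199, 239 and 328 CPM in those labelled WT (-0.91 ± 0.17, adjusted p = 0.0177, lost without dKO 1, dKO 2 or dKO 3). The Tr1 list thus did not move in 1 direction.

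Of the listed genes of IL-10 receptor signalling, with the receptor chain Il10rb among them, 1 of 6 was called higher and none lower. The median log2 fold change was 0.16. Stat3, the main transducer of the IL-10 signal, had 369.6, 357 and 274 CPM in the libraries labelled dKO, against 218, 185 and 203 CPM in those labelled WT (0.72 ± 0.13, adjusted p = 0.0114, lost without dKO 1 or dKO 2). The groups did not overlap for Stat3. The kinase genes Jak1 (0.12 ± 0.14) and Tyk2 (0.09 ± 0.10) and the STAT3 targets Socs3 (0.20 ± 0.20) and Bcl3 (0.37 ± 0.17) did not pass the test. Socs3 levels overlapped, with 117, 157 and 116 CPM in the libraries labelled dKO and 79.8, 128 and 130.3 CPM in those labelled WT.

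**Figure D5:**
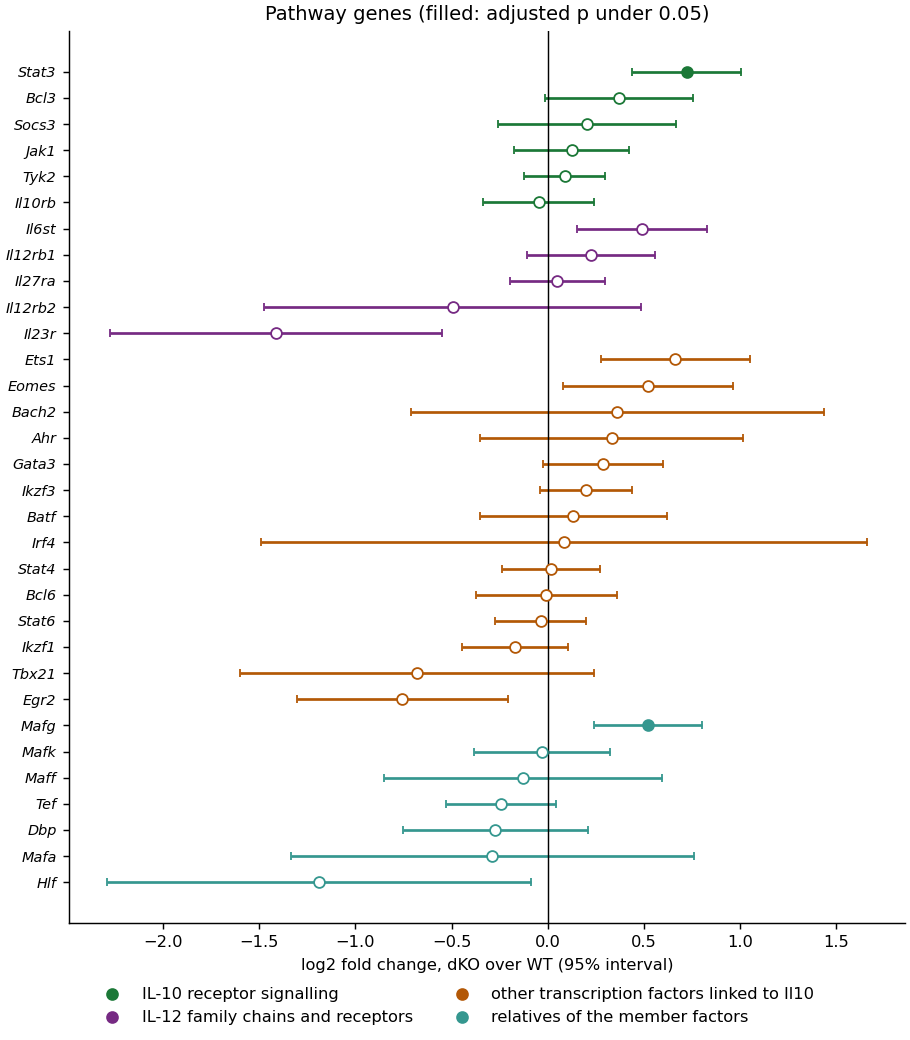
Log2 fold change of dKO over WT libraries with 95% interval for tested genes of 4 lists related to the members, filled where the adjusted p was under 0.05. Stat3 (0.72) and Mafg (0.52) are filled, while Il10rb (-0.05) lies at the zero line.

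Of the IL-12 family chains and receptors, 0 of 5 tested genes were called, and the median log2 fold change was 0.05. An unadjusted edgeR p under 0.05 was found for 2 of 5 (Il23r, lower, and Il6st, higher). Of all tested genes, 10.5% had such a p with a higher level. Il23r, which encodes the IL-23 receptor of Th17 cells, had 1.79, 2.70 and 0.884 CPM in the libraries labelled dKO, against 4.14, 6.20 and 3.46 CPM in those labelled WT (-1.41 ± 0.40, adjusted p = 0.072). Il6st, a signalling chain shared by the receptors of IL-6 and IL-27, gave 0.49 ± 0.15 (adjusted p = 0.109), while Il27ra differed by 0.05 ± 0.11. Of the IL-10 family cytokines other than Il10, Il22 was tested and Il19 had 0 reads. Il22 averaged 1.81 ± 1.05 CPM in the libraries labelled dKO and 5.32 ± 3.57 CPM in those labelled WT, with overlapping groups (-1.64 ± 0.65, adjusted p = 0.224). The values of Il22 and Il10 therefore lay on opposite sides of 0, with neither past the threshold.

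Other transcription factors linked to Il10 in T cells were called in 0 of 14 cases, with a median log2 fold change of 0.11. In either direction, 3 of 14 had an unadjusted edgeR p under 0.05, where 10.5% of all tested genes had one with a higher level. The lymphoid factor Ets1 (0.66 ± 0.18, adjusted p = 0.064) and Egr2, which is induced by antigen receptor signals (-0.76 ± 0.25, adjusted p = 0.122), had the smallest p of this list. Among relatives of the member factors, 1 of 7 tested genes was called, with a median of -0.24. This was Mafg, a small Maf protein without a transactivation domain, at 54.3, 56.5 and 60.8 CPM in dKO 1 to dKO 3, against 32.4, 42.1 and 44.9 CPM in WT 1 to WT 3 (0.52 ± 0.13, adjusted p = 0.0477). The call of Mafg was lost when any 1 of the 6 libraries was left out (adjusted p = 0.0518 to 0.139). Mafk, another small Maf gene, differed by -0.03 ± 0.16, and Hlf, a relative of Nfil3, by -1.19 ± 0.45 (adjusted p = 0.226).

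Cells other than CD4 T cells also transcribe several members, so their markers were summed in each library. The CD8 T cell genes were also higher in the libraries labelled dKO. Cd8a had 198, 184 and 199 CPM in these libraries, against 119.1, 139 and 119.4 CPM in those labelled WT (0.62 ± 0.11, adjusted p = 0.00866, lost without dKO 1). Cd8b1 differed by 0.55 ± 0.12 (adjusted p = 0.0236, lost without dKO 1, dKO 3 or WT 3). Unlike the tested members, Cd8b1 was lowest in WT 3. The part of CD8 T cells in the differences of the members was not tested. Of 12 macrophage and Kupffer cell markers, 5 (Adgre1, C1qa, C1qb, Vsig4 and Marco) had 0 reads in all libraries. The sum over the list was 2.65 to 6.97 CPM in the libraries labelled dKO and 2.07 to 4.49 CPM in those labelled WT. Marker levels do not give the part of such cells in the reads of a member, which was not tested. Dendritic cell markers summed to 20.01 to 24.0 CPM and 27.8 to 46.9 CPM, with Xcr1 and Itgax called lower. Itgax had 1 read in each dKO library, against 15, 18 and 25 reads in WT 1 to WT 3. Its call was lost with DESeq2. Of the 5 tested genes of this list, 4 had a log2 fold change below 0. The exception, Zbtb46, was higher without overlap (0.67 ± 0.21, adjusted p = 0.0963). NK cell markers reached 11.3 to 13.6 CPM in the libraries labelled dKO and 16.0 to 32.6 CPM in those labelled WT, and B and plasma cell markers 5.36 to 11.2 CPM and 6.21 to 35.5 CPM. Jchain made up 30.1 CPM of the highest of these last sums, in WT 2, while Cd79b, the only tested gene of that list, had 4.47, 4.72 and 7.63 CPM in the libraries labelled dKO, against 2.62, 1.61 and 3.27 CPM in those labelled WT (1.17 ± 0.32, adjusted p = 0.0699). Neutrophil markers (6.97 to 10.1 CPM against 6.63 to 8.42 CPM), hepatocyte markers (2.50 to 5.75 CPM against 2.62 to 5.33 CPM) and endothelial markers (53.2 to 56.9 CPM against 37.4 to 63.1 CPM) overlapped between the groups. Nearly all of the endothelial sum was Pecam1. Of the other endothelial genes listed, Stab2 had 1 read, in WT 1, and Clec4g, Lyve1 and Kdr were not among the counted symbols. Nearly all of the neutrophil sum was Csf3r.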

How the data were processed

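RNA of CD4 T cells sorted from liver was prepared with a NEBNext FS kit, which fragments the material, and read as single ends on a NovaSeq instrument, with 3 independent biological replicates per group per the study's methods. The submitters' processing notes name cutadapt, Bowtie2, mm10 and GRCm39. The sources used here give no versions, annotation, counter or use of strand, so reads of a gene and an overlapping antisense gene cannot be told apart. The authors deposited raw counts per gene symbol, which were tested, and a table named TPM that holds CPM: its columns sum to 1000000 and 100% of 170580 deposited CPM values give back the count within 0.01 reads. This table, not divided by length, served in alternatives only, and the authors' mapping summary and minimum and maximum columns were not used.

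Genes were kept by filterByExpr (minimum count 10, minimum total 15), scaled by TMM (factors 0.964 to 1.04) and tested with edgeR 4.0.16 (quasi-likelihood F-test, robust, group as the only term, biological coefficient of variation 14.5%) under R 4.3.3, with Benjamini-Hochberg adjustment over 15694 genes and a threshold of 0.05. The SE is the log2 fold change over the square root of F, and intervals are 95%. Exact permutation of 3 against 3 libraries has 0.1 as its smallest p, so it was run only on ratios of gene pairs and made no call. The p-values rest on the spread among these 6 libraries, and every pair within a group differed by more than counting error. The alternatives used DESeq2 1.42.0, limma 3.58.1, other scalings and filters, a replicate block, and each library left out. Positions and merged exon lengths come from GENCODE M21 (GRCm38), and promoter windows from RefSeq (GRCm38.p6). Exon lengths and the file's annotation may differ. The procedure was tested on simulated data of 3 against 3 libraries. It called 18% of genes changed 1.5-fold and 90% of those changed 2-fold, so changes near 1.5-fold were mostly missed there. Whether these shares hold for genes as variable as the members was not tested. The WT spread of Il10 was matched or exceeded by 0.116% of genes of at least 10 CPM. For Ebi3, Fgl2, Prdm1 and Nfil3 this was 1.19 to 2.37%, and for Maf, Bhlhe40 and Il10ra 8.58 to 18.9%. Il10 (3.60-fold) and Fgl2 (2.59-fold) were not called.

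The members and gene lists were chosen with earlier results of these data known. Genes named are the 9 members, Nr4a1 to Nr4a3 and Foxp3, in each list those called or else up to 2 with the smallest p, and the 5 genes most like Il10 and most like Maf. Others (Il10rb, Il27, Lag3, Itga2, Tnfrsf18, Nrp1, Jchain, Jak1, Tyk2, Socs3, Bcl3, Il27ra, Il19, Mafk, Hlf, Zbtb46, Stab2, Clec4g, Lyve1, Kdr) were named for their role or after their values were seen. A gene of the lists is not reported here.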

Additional observations from a re-analysis of the deposited data

How the results depend on the processing

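Under 14 alternative settings the log2 fold changes of the 8 tested members stayed above 0, and 97 of 112 values stayed on their side of the threshold. Maf was called in 6 of 14 settings and Il10ra in 11 of 14. The number of members called was 5 with DESeq2 (Bhlhe40, Fgl2, Il10ra, Maf and Prdm1) and 1 (Il10ra) with limma-voom, with limma-trend on log2(CPM + 1), with limma-trend on log2(CPM + 0.1) and with the replicate block. Leaving out 1 library at a time gave 0 to 3 members (0 without dKO 1, dKO 3 or WT 3), 90 to 447 genes called higher and 42 to 378 called lower. Without a filter on low counts 756 genes were called higher and 560 lower, and DESeq2 called 509 higher. Upper-quartile scaling called 307 higher and 247 lower, against 337 and 183 with TMM. The labels do not state whether libraries of the same number were paired. Over all tested genes, same-numbered libraries did not deviate together (correlations 0.05, 0.02 and -0.08). Such correlations cannot exclude a pairing that acts on part of the genes. A replicate block gave 307 higher, 184 lower and 1 member, with 400 genes called in both fits, and ended the calls of Maf and Havcr2. The cause of these differences was not tested. Totals of 5747744 to 11078184 reads limit what can be said of Il12a, Il27 and Il19, and 3 libraries per group limit what can be said of Il10.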
